A study of Vitis vinifera with 12 samples.

Results

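The binding events of the grapevine transcription factors NAC33 and NAC03 on leaf DNA were compared, using every event of the NAC33 list and of the NAC03 list labelled 500. The NAC33 list held 5870 events and the NAC03 list 4277, together 10147 of the 44889 events in the 7 lists of the series. An event is a position at which the authors' caller placed a binding site, and 2 events of different lists were called partners when they lay within 100 bp of each other on the same sequence. Strength values were not used to choose the events. Members of the NAC family of plant transcription factors bind DNA through a conserved domain near the start of the protein, as pairs of identical or of different family members. The family is known for roles in organ maturation, senescence and fruit ripening. CARPO (NAC60), another member, is the subject of the series and serves here as an additional readout.

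The series used DNA affinity purification sequencing (DAP-seq), which recovers genomic fragments that a purified factor holds in the test tube. Both factors were made with a HALO affinity tag by cell-free translation in rabbit reticulocyte lysate and fixed to a resin. Each was mixed with a library of fragmented genomic DNA from pooled young leaves of fruiting cuttings of the cultivar Syrah, and the retained fragments were amplified and sequenced. All groups share this protein system and cultivar. Lists of NAC33 and of CARPO titled berry, from berry DNA in place of leaf DNA, are used below only as further readouts. The DNA carried no chromatin, and other plant proteins were absent. Titles carry the number 500 or 1000 without a unit. The NAC33 list came from 2 libraries called together and the NAC03 list from 1, and whether the 2 NAC33 libraries were separate experiments is not said. With 1 list per factor there was no spread between replicates and no test. Intervals are exact Clopper-Pearson 95% intervals for counting error only, and they treat events as independent. The lists do not give read depth, so an absent partner may be an event below the calling threshold. The 3 HALO-GST control libraries were not analysed here, so places that are recovered without a factor could not be marked.

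A minority of the events of either factor lay at an event of the other. Of the 5870 NAC33 events, 930 (15.8%, 95% interval 14.9% to 16.8%) had a NAC03 partner. From the NAC03 side, 943 of the 4277 events (22.0%, 95% interval 20.8% to 23.3%) had NAC33 as a partner. The counts differ because a few events shared a partner. At a partner distance of 25 bp the shares were 10% for NAC33 and 13.7% for NAC03. Taking each event once with its mutual nearest partner gave 926 pairs. No partner within 100 bp was found for 4940 NAC33 events and 3334 NAC03 events.

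Events without a partner were mostly far from the other factor's events. Among NAC33 events without a partner the median distance to the nearest NAC03 event was 38668 bp, and 79.9% lay more than 10000 bp away. For NAC03 events without a partner the median was 19957 bp, and 67.8% lay more than 10000 bp away. Near misses were few. There were 215 NAC33 events (4.35% of those without a partner) and 244 NAC03 events (7.32%) with the other factor between 101 and 1000 bp. At the limit itself, 24 NAC33 events had their nearest NAC03 event 91 to 100 bp away and 21 had it 101 to 110 bp away.

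Strength, the deposited value that ranks events within a list, was concentrated in a small head of each list. In the NAC33 list it ran from 17 to 13535 with a median of 27.7, and the strongest event was 4.33 times the next. In the NAC03 list it ran from 9 to 4757 with a median of 20, and the strongest event was 1.09 times the next. The strongest 100 events held 19.0% of the summed strength in the NAC33 list and 33.7% in the NAC03 list. The scale of strength may differ between lists, so it is compared below only by rank.

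The heads of the 2 lists overlapped unequally. Of the strongest 100 NAC33 events, 56 had a NAC03 partner (95% interval 45.7% to 65.9%), against 15.8% in the whole list. The strongest 100 NAC03 events included 24 at a NAC33 event (95% interval 16.0% to 33.6%), which compares with 22.0% of the whole list. The NAC33 share fell with every enlargement of the head, from 8 of the strongest 10 to 43.0% of the strongest 500 and 33.5% of the strongest 1000. The NAC03 share went from 3 of the strongest 10 to 34.8% of the strongest 500 and 33.1% of the strongest 1000. When events were ranked by the deposited p-value instead of strength, the shares of the first 100 were 64% for NAC33 and 38% for NAC03. With the NAC33 list labelled 1000 on leaf DNA in place of that labelled 500, 39 of the strongest 100 NAC03 events had a NAC33 partner, against 23.6% of all NAC03 events. The NAC03 share of 24% was lower than when ranked by p-value or with the list labelled 1000, but the 95% intervals overlap. They ran from 28.5% to 48.3% for the 38% and from 29.4% to 49.3% for the 39%. With partner distances of 25 and 250 bp the share was 20% and 24%. The difference between the lists was not tested.

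**Figure D1:**
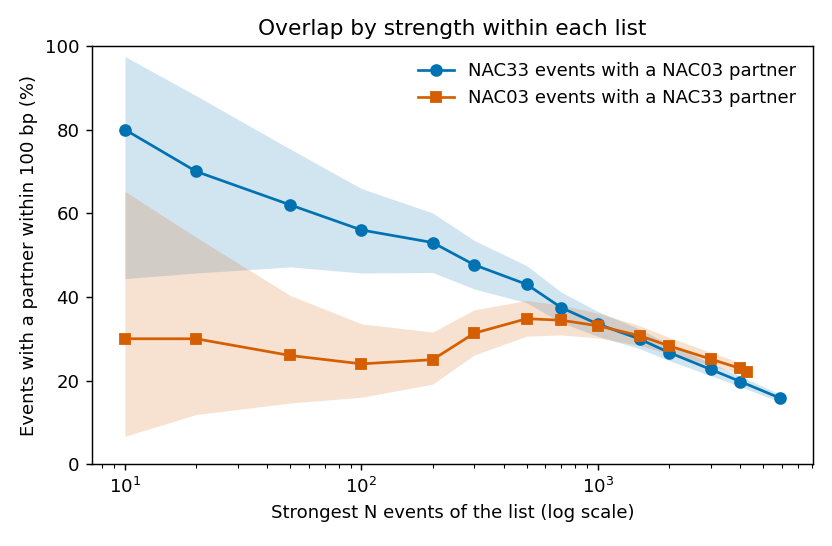
Share of events with a partner within 100 bp in the other list (y axis, %) among the strongest N events of each list (x axis, log scale), with exact 95% intervals as bands. The NAC33 line starts at 80% for the strongest 10 events and falls to 15.8%, while the NAC03 line starts at 30%, lies at 24% for the strongest 100 and ends at 22.0%.

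Divided into 5 classes of nearly equal size by strength, both lists showed more overlap among stronger events. In the NAC33 list the share with a NAC03 partner was 32.3% in the strongest class, then 18.8%, 11.7% and 10.6%, and 5.79% in the weakest. In the NAC03 list the share with a NAC33 partner was 33.5% in the strongest class, then 26.5%, 19.3% and 17.7%, and 13.2% in the weakest. From the weakest class to the strongest, the share was higher by 26.5 percentage points in the NAC33 list (Newcombe 95% interval 23.5 to 29.5) and by 20.3 in the NAC03 list (16.4 to 24.2). With both lists limited to a −log10 q-value of 4 or more, partners and classes were formed anew. The NAC03 difference was then 12.0 points (4.79 to 19.0) and the NAC33 difference 32.9.

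Both lists had their strongest event at a strong event of the other list. Positions were computed from the deposited columns as described under processing, and the genome build is not given in the sources used here. The pair with the best mean rank lay on chromosome 13, where the NAC33 event at 12023108 ranked 1 with a strength of 13535. Its NAC03 partner at 12023097 ranked 2 with a strength of 4350.8. The next pair lay on chromosome 1. There the NAC03 event at 12468917 ranked 1 (strength 4757) and the NAC33 event at 12468921 ranked 3 (strength 1983.6). So each factor's strongest site was among the 3 strongest sites of the other. The third pair lay on chromosome 3, with NAC33 at 1949733 ranked 2 (strength 3129) and NAC03 at 1949734 ranked 11 (strength 914.4).

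The remaining 2 of the 5 pairs were neighbours on chromosome 10, and the stronger of them differed between the 2 lists. This is 1 locus with 1 list per factor, and the difference was not tested. NAC33 had events at 4605387 and 4605447, 60 bp apart, with strengths of 289 and 1755.2. NAC03 had events at 4605374 and 4605436, 62 bp apart, with strengths of 1009.2 and 450.8. The stronger event was thus the one at the higher coordinate for NAC33 and the one at the lower coordinate for NAC03. All 4 of these events lay within 100 bp of a CARPO event on leaf DNA labelled 500. Neighbouring events of 1 factor within 100 bp were uncommon, with 7 such neighbour pairs in the NAC33 list and 36 in the NAC03 list. Both events had a partner in the other list in 4 of the 7 and in 16 of the 36, and neither had one in 2 and in 18. Over all events, 15.8% of NAC33 and 22.0% of NAC03 events had a partner. Events this close can share 1 partner, so the counts of neighbour pairs are not set against these shares as a result.

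The strongest NAC33 events without a NAC03 partner were mostly found again by NAC33. Of the 5 such events, 4 were found again in the NAC33 list labelled 1000 on leaf DNA. The share was 69.4% for all events without a NAC03 partner in the strongest of 5 strength classes. Among the strongest 20 NAC33 events, with or without a NAC03 partner, it was 95%, so 4 of 5 was not high for this rank. None of the 5 had a CARPO event in any of the 3 CARPO lists. Of the events without a NAC03 partner in the strongest class, 10.8% had one in the list labelled 500 on leaf DNA. The 4 were on chromosome 15 at 19948088 (strength 491, rank 10), on the sequence named chr00 at 19602212 (357.1, rank 15), on chromosome 6 at 20812990 (335, rank 17) and on chromosome 3 at 1311811 (316, rank 18). The chr00 event had its nearest NAC03 event 455 bp away. The event that was not found again, on chromosome 14 at 13593469, ranked 6 by strength (592.5), but its −log10 q-value was 7.93, against 30.3 to 53.4 for the other 4.

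The 5 strongest NAC03 events without a NAC33 partner each had a CARPO partner in each of the 3 CARPO lists. Among all NAC03 events without a NAC33 partner in the strongest class, 81.2% had one on leaf DNA labelled 500, 66.4% in the list labelled 1000 and 62.0% in the berry list. The strongest 10 NAC03 events, with or without a NAC33 partner, include these 5. Of those 10, 100% had a CARPO partner on leaf DNA labelled 500, 90% in the list labelled 1000 and 80% in the berry list. These 10 are thus not a separate set to compare with. The NAC03 events ranked 1, 2 and 10 had a NAC33 partner, and they too had a CARPO partner on leaf DNA labelled 500. Whether CARPO partners at this rank went with the absence of NAC33 was not tested. The NAC03 event at 19741319 on chromosome 11 (strength 2595.2, rank 3) lay at the CARPO event ranked 2 on leaf DNA labelled 500. On chromosome 9, NAC03 had events at 20833344 (strength 2549, rank 4) and at 20833409 (strength 1624, rank 7), whose CARPO partners ranked 1 and 16 in that list. The nearest NAC33 events labelled 500 were 65721 bp from the first of these 3 events, 50469 bp from the second and 50404 bp from the last. The other events, on chr00 at 7155534 (2391.9, rank 5) and on chromosome 17 at 6121480 (1905, rank 6), had NAC33 partners in the list labelled 1000, at ranks 5 and 7. So for these NAC03 events the absence of NAC33 labelled 500 did not extend to every NAC33 list.

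Where both factors had an event, their ranks were related but far from identical. Over the 926 pairs, Spearman's rho between the ranks was 0.50, as a description across sites that share their place in the genome. The median paired event stood at 27.6% of the NAC33 list and at 36.1% of the NAC03 list, counted from the strongest. Of the 237 pairs whose NAC33 event was in the strongest 10% of its list, 103 had a NAC03 event in the strongest 10% as well, and 27 had one in the weaker 50%. Of the 152 pairs whose NAC03 event was in the strongest 10%, 8 had a NAC33 event in the weaker 50%.

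**Figure D2:**
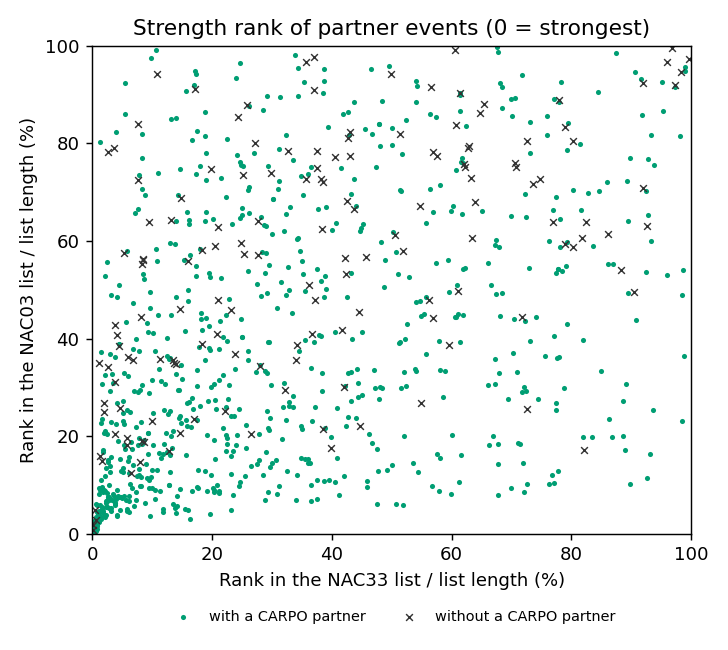
Rank of each of the 926 partner pairs in the NAC33 list (x axis) and in the NAC03 list (y axis), both as a percentage of list length with the strongest event at 0. Dots have a CARPO partner on leaf DNA labelled 500 and crosses have none; the pairs crowd towards the lower left corner (rho 0.50) and spread over the whole square.

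The 3 pairs with the largest difference in rank in each direction lay outside the extreme head of either list, with strengths of at most 54. The 90th percentile of strength was 46 in the NAC33 list and 43 in the NAC03 list. NAC33 ranked higher on chromosome 19 at 8903560, where its strength was 44.9 (rank 628) and that of NAC03 was 9.5 (rank 4241). The same held on chromosome 18 at 34518968 (ranks 579 and 4167) and on chromosome 13 at 14908317 (ranks 322 and 3956). NAC03 ranked higher on chromosome 18, where the NAC33 event at 20264137 had a strength of 19.7 (rank 5436) and its NAC03 partner a strength of 39 (rank 488). It also did so on chromosome 14 at 9964289 (ranks 5270 and 433) and on chromosome 4 at 1050284 (ranks 5463 and 700), with the NAC33 rank given first. These 6 pairs had a CARPO partner on leaf DNA labelled 500, as did 774 of all 926 pairs (83.6%).

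The distance between partner events had a sharp peak at 1 bp and a broad remainder. The median distance was 14 bp, with quartiles at 1 and 40 bp. In 283 of the 926 pairs (30.6%) the events lay 1 bp apart, with NAC03 at the higher coordinate in 137 and at the lower in 146. The same base was given in 3 pairs and a distance of 2 bp in 14. The next most frequent distance was 9 bp, with 26 pairs. Beyond these the distances spread over the whole range, with 170 pairs (18.4%) from 51 to 100 bp. NAC03 lay at the higher coordinate in 446 pairs and at the lower in 477.

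**Figure D3:**
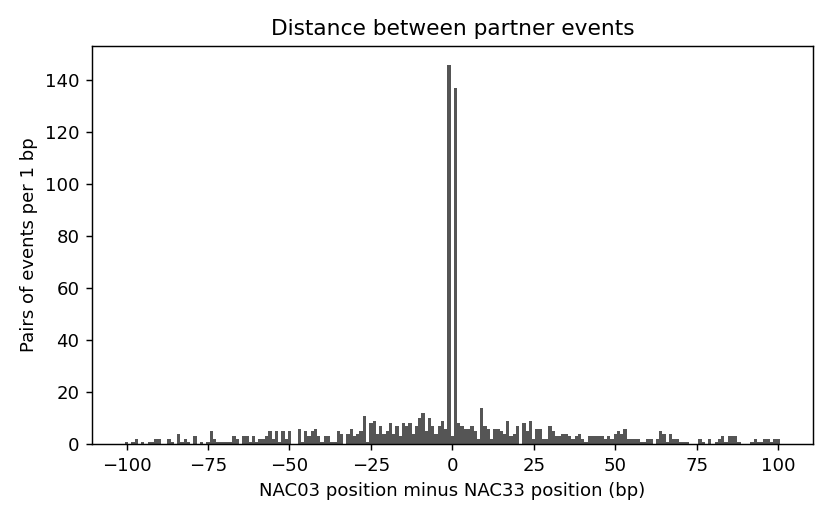
Number of pairs (y axis) at each signed distance between partner events (x axis, NAC03 position minus NAC33 position in bp). The 2 tall bars are at -1 bp (146 pairs) and 1 bp (137 pairs), with 3 pairs at 0 bp between them.

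Close pairs were found again more often with NAC33 labelled 1000 than distant pairs. Of the 300 pairs at 0 to 2 bp, 75.3% (95% interval 70.1% to 80.1%) had a NAC33 event in that list, against 54.7% (46.9% to 62.3%) of the 170 pairs at 51 to 100 bp. The distant pairs were also weaker in rank. Their median NAC33 event stood at 36.1% of its list, against 27.8% for the pairs at 0 to 2 bp, and the part of rank in the result was not tested. Rank agreement was 0.57 (Spearman's rho) at 0 to 2 bp and 0.36 at 51 to 100 bp. The share with a CARPO partner on leaf DNA labelled 500 was 84.3% (79.7% to 88.3%) at 0 to 2 bp and 76.5% (69.4% to 82.6%) at 51 to 100 bp, and these intervals overlap.

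NAC33 events at NAC03 events were mostly CARPO events as well, and the other NAC33 events mostly were not. In the whole NAC33 list, 21.1% of events had a CARPO partner on leaf DNA labelled 500. Among NAC33 events with a NAC03 partner this was 777 of 930 (83.5%), and among those without it was 463 of 4940 (9.37%). The difference was 74.2 percentage points (Newcombe 95% interval 71.5 to 76.6). The contrast was present in each strength class, from 86.3% against 10.8% in the strongest to 76.5% against 6.60% in the weakest.

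Read from the NAC03 list, the same contrast was smaller, and most NAC03 events lay at CARPO events with or without NAC33. In the whole NAC03 list, 72.3% of events had a CARPO partner. With a NAC33 partner this was 790 of 943 (83.8%), and without one it was 2304 of 3334 (69.1%), a difference of 14.7 percentage points (11.7 to 17.4). With the NAC33 and NAC03 lists both limited to a −log10 q-value of 4 or more before pairing, this difference was 6.77 points (2.52 to 10.1). The 83.5% found for NAC33 events at NAC03 positions therefore stands beside 72.3% for NAC03 positions in general. In the strongest class the NAC03 shares were 95.1% with a NAC33 partner and 81.2% without, and in the weakest they were 72.6% and 51.5%. In classes 3 and 4, counted from the strongest, the interval of the difference included 0.

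**Figure D4:**
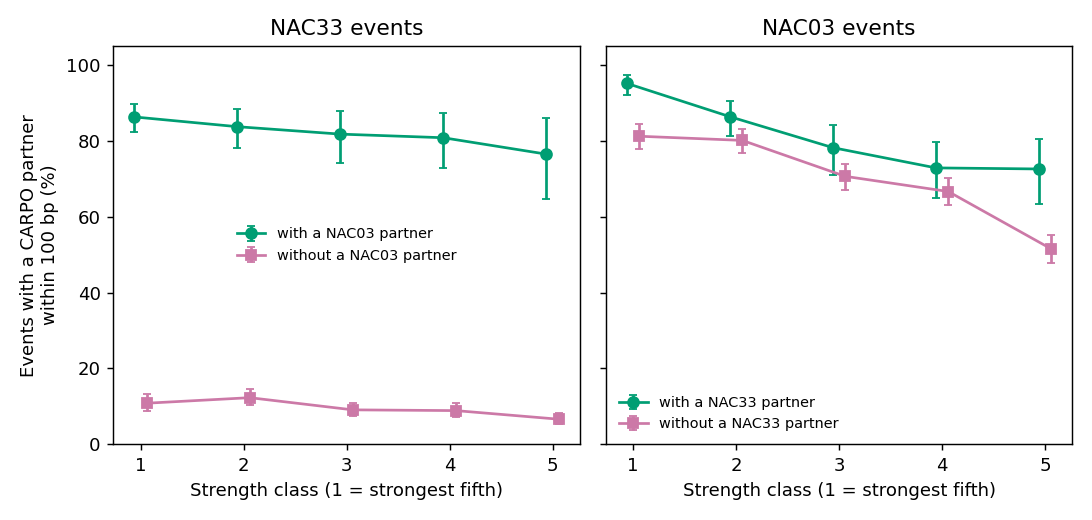
Share of NAC33 events (left) and NAC03 events (right) with a CARPO event on leaf DNA labelled 500 within 100 bp (y axis, %), by strength class (x axis, 1 is the strongest) and by whether the event had a partner in the other list; bars are exact 95% intervals. On the left the lines run near 80% and near 10%. On the right both lines start above 80% and fall, to 72.6% with a NAC33 partner and 51.5% without in the weakest class.

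Events of both factors were thus mostly sites of all 3. Of the 930 NAC33 events with a NAC03 partner, 153 had no CARPO partner on leaf DNA labelled 500. These 153 events were 2.61% of the NAC33 list, and 54.9% of them were found again with NAC33 labelled 1000. That share was 39.5% for all NAC33 events. It was 71.0% with both partners, 55.9% with CARPO only and 31.8% with neither. The class with neither partner made up 76.3% of the NAC33 list and 24.1% of the NAC03 list. It held 40 of the strongest 100 NAC33 events and 23 of the strongest 100 NAC03 events. The commonest class of the NAC03 list was that with CARPO and without NAC33, at 53.9%, against 7.89% for CARPO without NAC03 in the NAC33 list.

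Over all events, the other CARPO lists gave the same order. In the CARPO list labelled 1000, which held a partner of 13.8% of all NAC33 events, the share was 63.7% for NAC33 events with a NAC03 partner and 4.41% for those without. In the CARPO berry list, with 9.47% of all NAC33 events, it was 49.9% and 1.86%. For NAC03, which had a partner for 52.8% of its events in the list labelled 1000, the shares were 64.1% with a NAC33 partner and 49.7% without. In the CARPO berry list, with 37.8% of all NAC03 events, they were 50.4% and 34.3%. By strength class, counted from the strongest, the NAC03 difference was uneven. With the list labelled 1000 it was 2.90, 3.87 and 7.01 percentage points in classes 2, 3 and 4. In classes 1 and 5 it was 15.8 and 16.4 points. With the berry list it was 4.81, 5.14 and 3.31 points in classes 2, 3 and 5. In classes 1 and 4 it was 16.7 and 10.5 points. In the 3 classes named first for each list, the lower 95% limit was negative. The other CARPO lists are not independent of the first CARPO list, since the same factor was used.

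NAC33 events that NAC03 shared were also found again more often by NAC33 itself. Of all NAC33 events labelled 500, 39.5% had a partner in the NAC33 list labelled 1000. The share was 636 of 930 (68.4%) with a NAC03 partner and 1681 of 4940 (34.0%) without, a difference of 34.4 percentage points (31.0 to 37.5). With the NAC33 list labelled 500 and the NAC03 list both limited to a −log10 q-value of 4 or more before pairing, it was 20.5 points (15.2 to 24.7). Strength moved with this result, and its part was not tested as a cause. Within the strongest class the shares were 88.1% and 69.4%, and within the weakest they were 32.4% and 12.0%. Of all NAC33 events, 6.10% had a partner in the NAC33 berry list, and the share was 16.5% with a NAC03 partner and 4.15% without. Within the strongest class these berry shares were 32.5% and 14.8%. In classes 2 and 5, counted from the strongest, the interval of the difference included 0.

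Over the whole lists, the amount of NAC33 and NAC03 overlap was similar with the other NAC33 list on leaf DNA. With NAC33 labelled 1000, made from 1 library, 1010 of 6298 NAC33 events (16.0%, 95% interval 15.1% to 17.0%) had a NAC03 partner. Of the NAC03 events, 23.6% (22.3% to 24.9%) had a partner in that list. Among the strongest 100 events the shares were 57% for NAC33 labelled 1000 and 39% for NAC03 (29.4% to 49.3%), the latter against 24% with NAC33 labelled 500. With the NAC33 berry list, 186 of 731 NAC33 events (25.4%, 22.3% to 28.8%) had a NAC03 partner, and 4.47% of the NAC03 events had a partner in that shorter list. In all, 1321 NAC03 events (30.9%) had a partner in at least 1 of the 3 NAC33 lists, and 142 (3.32%) had one in each. Of the strongest 100 NAC03 events, 40 had a partner in at least 1 of them.

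Along the genome, NAC33 events outnumbered NAC03 events on each of the 19 numbered chromosomes, by 1.15 to 1.66 times, against 1.37 for the whole lists. Density ran from 9.10 to 15.0 events per Mb for NAC33 and from 5.53 to 12.9 for NAC03, with chromosome 16 lowest and chromosome 8 highest of the numbered chromosomes for both. The end of the last event on a chromosome, over the 7 lists, stood in for its length. On chr00 the numbers were 195 and 197. Sequence chr00 held 35 of the strongest 100 NAC33 events and 28 of the strongest 100 NAC03 events. Without it, the shares of the strongest 100 with a partner were 57% for NAC33 and 24% for NAC03.

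The overlap was spread over the chromosomes. The share of NAC33 events with a NAC03 partner ran from 10.6% on chromosome 12 (95% interval 7.05% to 15.2%) to 23.1% on chromosome 8 (18.7% to 27.9%). The share of NAC03 events with a NAC33 partner ran from 17.5% on chromosome 4 to 27.4% on chromosome 11. Events without a partner still followed a common density. Over 468 windows of 1 Mb on the numbered chromosomes, Spearman's rho between the numbers of NAC33 and NAC03 events without a partner was 0.49. The windows differ in how much sequence can be mapped, which was not measured, and the value is a description. The median window held 10 such NAC33 events and 6 such NAC03 events, and 138 windows held no NAC33 event with a NAC03 partner.

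**Figure D5:**
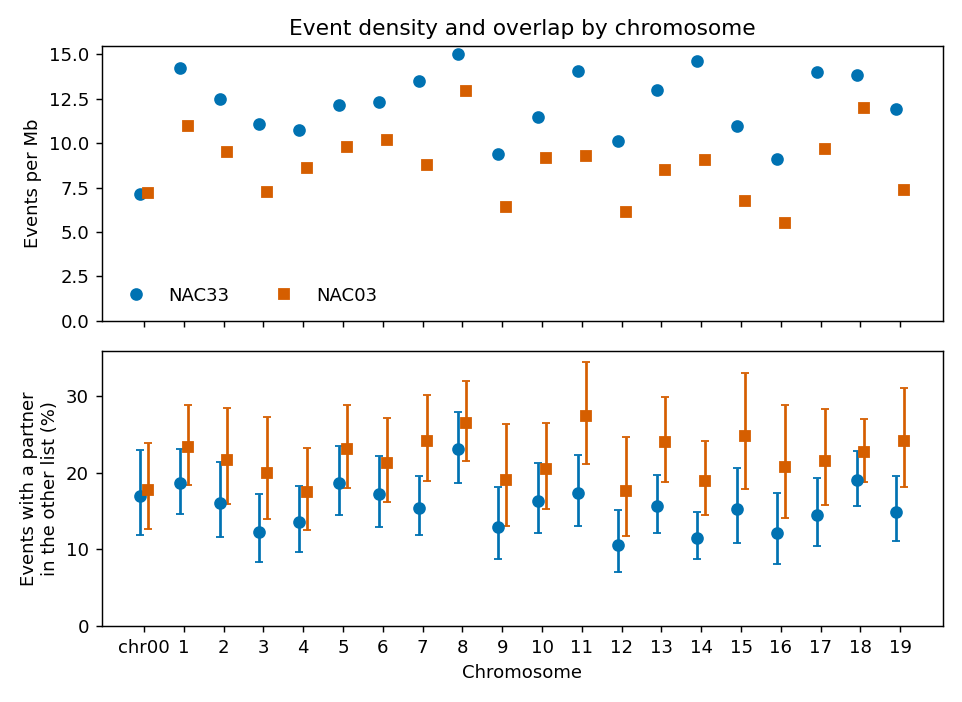
Events per Mb (top) and share of events with a partner in the other list (bottom, %, with exact 95% intervals) by chromosome (x axis) for NAC33 and NAC03. NAC33 lies above NAC03 in density on each numbered chromosome, and both are highest on chromosome 8.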

How the data were processed

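The authors deposited event lists without a header in a 10-column layout with decimal commas. The caller appears in the file naming only, as GEM. The submitters' processing notes name fastp 0.21.0 and Bowtie2 2.0, and the caller's control, its filters and the genome build are not given in the sources used here. Deposited intervals span 201 bp, and the summit (column 2 plus column 10 plus 1) was used as the position. The deposited score was not used. Per the values, column 7 is a strength signal as deposited by the authors, and columns 8 and 9 were taken as the authors' −log10 p-value and −log10 q-value, capped at 999. The lowest −log10 q-value in both lists was 2.

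Nearest events were found with numpy 2.4.6 and pandas 2.3.3, and intervals with scipy 1.17.1. Partner finding was tested on simulated data. Strength ties were broken by p-value, then position. Events named in the text are the 5 pairs with the best mean relative rank, the 5 strongest events of each list without a partner, the 3 pairs with the largest rank difference in each direction and the strongest event of each list. Members, lists and rules were chosen with earlier results of these data known. The 2 NAC33 libraries have 1 list, so they could not be compared. No gene, motif or sequence is given, because no genome of the events' build was used here. Alternatives are in the closing section.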

Additional observations from a re-analysis of the deposited data

How the results depend on the processing

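Of 56 alternative values for 9 results, 32 stayed within the 95% interval of the reported value, 24 moved outside it and 0 changed sign. The shares of the strongest 100 events, all their alternatives included, were chosen after seeing the data.

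With a partner distance of 25 bp, 13.7% of NAC03 events and 10% of NAC33 events had a partner, as did 41% of the strongest 100 NAC33 events. The difference between strongest and weakest class was then 18.7 percentage points for NAC33 and 16.3 for NAC03. The CARPO difference between events with and without a partner was 69.8 points for NAC33 and 17.7 for NAC03, and the difference in events found again at 1000 was 39.6 points. With 250 bp, the shares were 24.4% for NAC03 and 17.5% for NAC33. Shorter and longer limits lower and raise the shares by construction.

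A minimum −log10 q-value of 4 left 1212 NAC33 and 1163 NAC03 events. With it, the shares were 19.3% for NAC33 and 20.5% for NAC03. The class differences were 32.9 and 12.0 points. The CARPO differences were 70.1 points for NAC33 and 6.77 for NAC03, and the difference in events found again was 20.5 points. The cause was not tested. With the NAC33 list reduced to its strongest 4277 events, the shares were 19.2% for NAC33 and 19.5% for NAC03, and the difference in events found again was 29.5 points. With NAC33 labelled 1000 in place of 500, 23.6% of NAC03 events had a partner, as did 39% of the strongest 100. Ranking by p-value gave a class difference of 25.8 points for NAC03 and a partner share of 38% for its first 100 events. Leaving out chr00 and pairing 1 to 1 kept each value they were applied to within its interval.

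No paired analysis was possible because the 2 NAC33 libraries were called together and each factor had 1 list, and replicates were therefore not left out in turn. Unknown read depth limits the reading of absent partners.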
